A study of Mus musculus with 16 samples.

Results

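The genes of haem and iron recycling by red pulp macrophages were followed in monocytes of the neonatal mouse spleen, sorted by how much neuropilin-1 (Nrp1, which binds class 3 semaphorins and VEGF) they carry. The set holds 10 genes chosen by symbol, Hmox1, Slc40a1, Spic, Blvrb, Fth1, Ftl1, Slc48a1, Tfrc, Cd163 and Vcam1. All 10 were among the 25562 genes of the RNA count table, and 12 of the 40796 regions in the open chromatin table carried the Ensembl identifier of one of them. RNA-seq was made from 3 Nrp1 high and 3 Nrp1 low libraries of 80000 cells each, and ATAC-seq (in which a transposase cuts open chromatin) from 5 Nrp1 high and 5 Nrp1 low libraries of 50000 cells each. All mice were wild type C57BL/6 (C57BL/6J in the RNA part of the protocol), 7 days old, with no treatment named, and no group carried an allele that another lacked. The cell type label is myeloid derived suppressor cells, while the protocol speaks of monocytes. No source used here names the other markers of the gate, and the protocol mentions pooled RNA without saying how many animals stand behind a library.

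Red pulp macrophages of the spleen engulf aged red cells and return their iron to the blood. Haemoglobin and haem enter the pathway through scavenging and phagocytosis, haem oxygenase opens the haem ring, ferritin stores the freed iron, and ferroportin exports it to transferrin. In mice the transcription factor Spi-C is needed for these macrophages to form, and haem acting through loss of the repressor Bach1 induces it in monocytes. Ferritin and the transferrin receptor are also controlled after transcription by iron regulatory proteins, which an RNA level does not show.

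Total counts were 28440098 to 31428419 in the Nrp1 high and 23395363 to 35127433 in the Nrp1 low RNA libraries. Nrp1 low replicate 1 stood farthest out on the first principal component, which held 49% of the variance (133.3, against -71.07 to 22.84 in the 5 others). Levels are given as CPM, counts scaled to a common library size after TMM normalisation. Nrp1 itself was at 97.3, 89.8 and 111 CPM in Nrp1 high libraries, against 20.1, 57.8 and 41.5 CPM in Nrp1 low libraries, which did not overlap (edgeR adjusted p = 0.259). Ly6c2, a surface antigen of classical monocytes, was abundant, with means of 2018 CPM in Nrp1 high libraries against 2069 CPM in Nrp1 low libraries. Of 15541 genes tested, 105 fell and 1 rose in Nrp1 high at a Benjamini-Hochberg adjusted p under 0.05 in edgeR's quasi-likelihood test, so that 0.676% of genes were called lower. Leaving out 1 library gave 0 called genes for Nrp1 high replicate 3 (909 at an unadjusted p under 0.05), 28 for high replicate 1, 50 for high replicate 2 and 29 for low replicate 3.

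Promoter sequences show what lies under the start-site regions described further on. RefSeq promoters (GRCm38.p6) matched 6 of the 10 genes, and those of Ftl1, Fth1, Blvrb and Tfrc are printed because a measured open region covered at least part of them. Each is the 250 bases before a RefSeq start, 5′ to 3′ on the gene's strand, and capitals mark the CCAAT box (letters CCAAT) and the GC box (letters GGGCGG) or the reverse complement of either. The Ftl1 stretch is chr7:45459887-45460136 on the minus strand, with 183 bases inside its region. The Fth1 stretch is chr19:9982396-9982645 on the plus strand, with 157 bases inside, and precedes a start within the span of the gene, while the window before the outermost start (9980350 to 9980599) lay under no region and held no box.
Ftl1: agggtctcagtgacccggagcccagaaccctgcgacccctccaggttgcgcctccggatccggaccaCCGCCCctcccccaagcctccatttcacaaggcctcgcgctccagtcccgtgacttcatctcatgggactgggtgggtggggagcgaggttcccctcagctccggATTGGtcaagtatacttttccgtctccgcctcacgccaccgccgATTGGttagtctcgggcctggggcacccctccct
Fth1: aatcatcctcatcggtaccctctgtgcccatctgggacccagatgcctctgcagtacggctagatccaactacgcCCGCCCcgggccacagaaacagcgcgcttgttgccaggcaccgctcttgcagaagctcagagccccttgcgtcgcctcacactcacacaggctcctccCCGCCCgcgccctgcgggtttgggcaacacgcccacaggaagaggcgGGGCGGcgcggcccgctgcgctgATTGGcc
Blvrb: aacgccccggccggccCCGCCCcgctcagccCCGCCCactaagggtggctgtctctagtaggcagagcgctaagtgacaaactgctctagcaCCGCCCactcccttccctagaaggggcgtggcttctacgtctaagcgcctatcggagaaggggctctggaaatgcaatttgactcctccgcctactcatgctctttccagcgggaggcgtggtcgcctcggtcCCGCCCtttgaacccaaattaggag
Tfrc: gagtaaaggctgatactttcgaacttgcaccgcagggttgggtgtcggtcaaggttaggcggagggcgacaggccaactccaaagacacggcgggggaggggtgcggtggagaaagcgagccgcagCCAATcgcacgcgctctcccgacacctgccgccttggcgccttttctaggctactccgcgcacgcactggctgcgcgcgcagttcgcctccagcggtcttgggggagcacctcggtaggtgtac
The Blvrb stretch is chr7:27447728-27447977 on the plus strand and lay wholly inside a region, and the Tfrc stretch is chr16:32608646-32608895 on the plus strand with 94 bases inside. Both ferritin promoters held each kind of box, with 2 CCAAT boxes in Ftl1 and 3 GC boxes in Fth1, while Blvrb held 4 GC boxes and the printed Tfrc stretch 1 CCAAT box. A further Tfrc window, 32608872 to 32609121, lay wholly inside the same region and held 1 GC box and no CCAAT box; it runs into the gene's own span and is not printed. Of 32851 RefSeq promoters of the same length, 33.8% held a CCAAT box and 32.7% a GC box, so neither is rare. The core of the antioxidant response element, the site of Nrf2 and Bach1 in many haem genes (TGACNNNGC on either strand), was in 0 of the 9 windows of the 6 matched genes and in 10.2% of all promoters. At that share, 0 of 9 windows does not set these genes apart. Sites beyond the 250 bases were not searched, and Hmox1, Slc40a1, Slc48a1 and Vcam1 had no window.

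None of the 10 genes passed the RNA test (0 called, against 0.676% of all genes called lower), and 8 of the 10 had log2 fold changes below 0. All 10 passed the filter on low counts. By mean level, the iron exporter Slc40a1, the transcription factor Spic and the adhesion molecule Vcam1 had mean levels 2.32-fold to 2.55-fold lower in Nrp1 high than in Nrp1 low, those of haem transport, haem breakdown and ferritin were 1.26-fold to 1.41-fold lower, and Tfrc and Cd163 had almost equal means. These are point estimates, differences between the genes were not tested, and the 95% intervals of Spic, Ftl1 and Tfrc, for example, overlap. The median log2 fold change (Nrp1 high minus Nrp1 low) was -0.42 over the 10 genes, against 0.01 over all genes tested. In 5 genes, Slc40a1, Spic, Vcam1, Hmox1 and Slc48a1, every Nrp1 high library lay below every Nrp1 low library, as it did in 10.8% of all genes tested. At an unadjusted p under 0.05, 3 of the 10 were lower, compared with 6.72% of all genes. In sorted bulk cells, fewer cells of a type and less RNA per cell cannot be told apart.

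**Figure D1:**
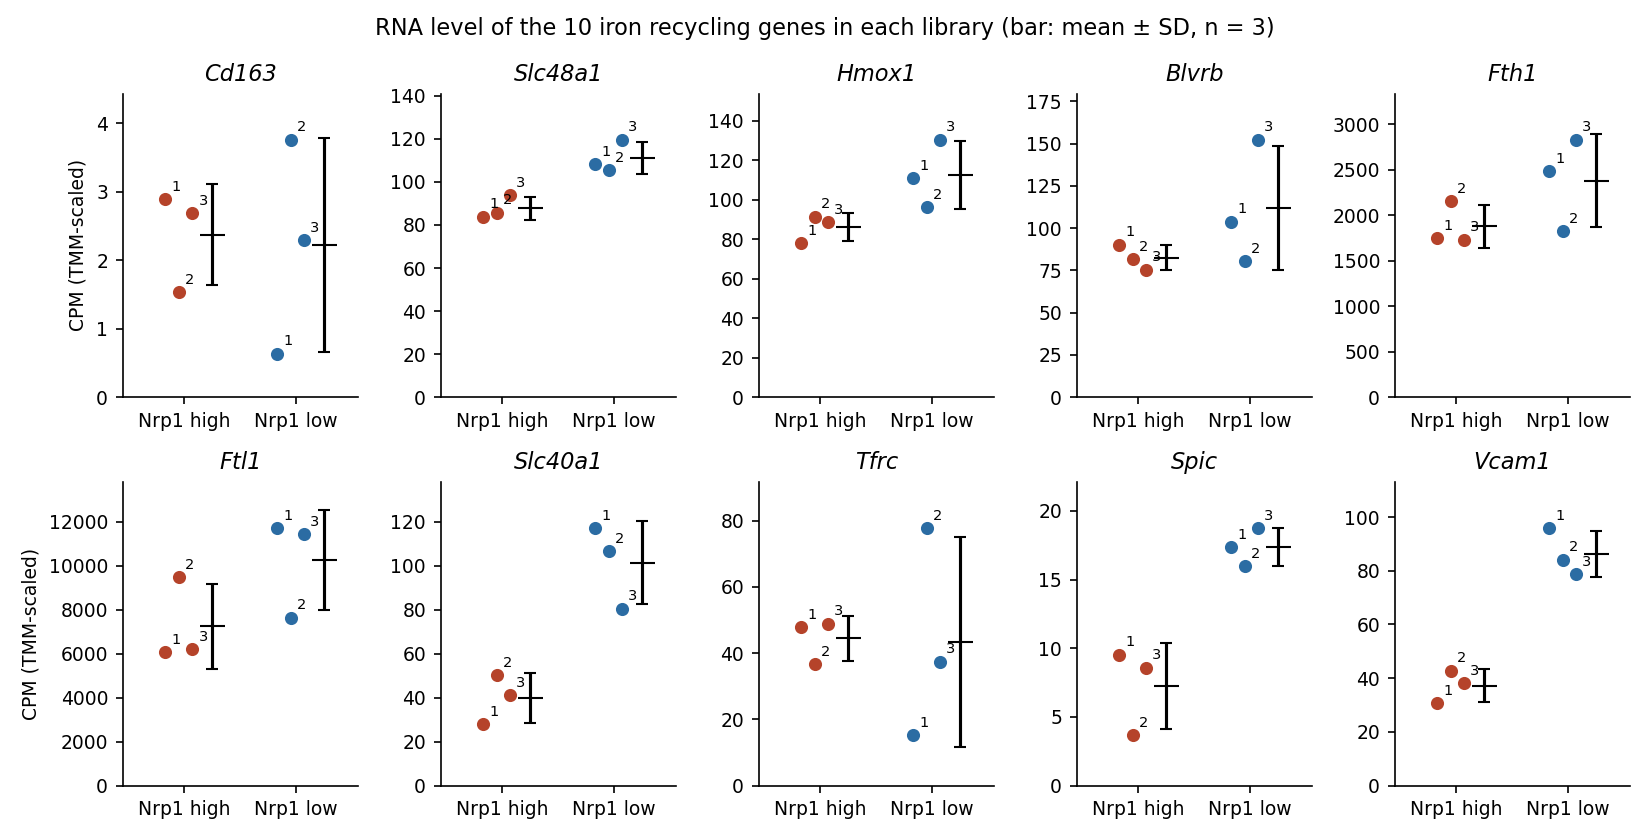
RNA level in CPM of the 10 genes, by library, with Nrp1 high on the left of each panel and Nrp1 low on the right; numbers are replicates and bars mean ± SD of 3 libraries. Slc40a1, Spic and Vcam1 show separate groups, whereas the Nrp1 low libraries of Tfrc run from 15.2 to 77.7 CPM and enclose the Nrp1 high ones.

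Iron export had the lowest log2 fold change of the set. Slc40a1 (ENSMUSG00000025993, chromosome 1, 45908070 to 45926532) encodes ferroportin, the only known iron exporter of mammalian cells. It stood at 27.9, 50.3 and 41.1 CPM in Nrp1 high libraries, against 117, 107 and 80.5 CPM in Nrp1 low libraries. The groups did not overlap, and the highest Nrp1 high library was replicate 2. The means were 39.8 ± 11.3 and 101 ± 18.9 CPM (SD, n = 3 each), a level 2.55-fold lower in Nrp1 high, and the log2 difference was -1.35 ± 0.27 (SE; 95% interval -1.97 to -0.73; edgeR adjusted p = 0.0942). DESeq2, run as an alternative, called it (adjusted p = 0.000832). The two-sided exact permutation p on log2(CPM + 1) was 0.1 for Slc40a1, as for Spic, Vcam1, Hmox1 and Slc48a1, which is the smallest that 3 against 3 libraries can give.

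Vcam1 (ENSMUSG00000027962, chromosome 3, 116110020 to 116129688), a ligand of the integrin VLA-4 that red pulp macrophages and stromal cells carry, lay nearest to the threshold. Its levels were 30.8, 42.8 and 38.1 CPM in Nrp1 high libraries, against 95.8, 84.2 and 78.7 CPM in Nrp1 low libraries. No library of one group reached into the other, and the SD was under 10 CPM in both. The difference was -1.21 ± 0.21 on the log2 scale (SE; 95% interval -1.69 to -0.73), 2.32-fold lower in Nrp1 high, with an edgeR adjusted p of 0.0517. It was called by DESeq2 (adjusted p = 6.65e-05), by limma-voom (adjusted p = 0.0432) and by edgeR when only genes of at least 10 CPM in 3 libraries were tested (adjusted p = 0.0346). DESeq2 called these 2 of the 10 genes, Slc40a1 and Vcam1, and 2.1% of all genes lower.

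Spic (ENSMUSG00000004359, chromosome 10, 88675269 to 88683023) encodes Spi-C, an ETS-family factor related to PU.1. It was at 9.54, 3.67 and 8.59 CPM in Nrp1 high libraries, against 17.4, 15.99 and 18.7 CPM in Nrp1 low libraries. The low group was tight and the high group was not, replicate 2 of Nrp1 high holding the least. The log2 difference was -1.26 ± 0.38 (SE; 95% interval -2.13 to -0.38; edgeR adjusted p = 0.316). Without Nrp1 high replicate 2 it was -0.93, and without high replicate 1 it was -1.503. Bach1, the repressor of Spic and Hmox1, was at 66.4, 30.8 and 63.0 CPM in Nrp1 high libraries, against 17.4, 50.1 and 35.6 CPM in Nrp1 low libraries. The groups overlapped, and the means were 53.4 and 34.4 CPM (log2 difference 0.64 ± 0.43 SE, edgeR adjusted p = 0.511). Replicate 2 of Nrp1 high held the least Bach1 of its group, as it did of Spic. Bach1 was named after its values were seen, and a link to Spic was not tested.

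Haem capture and transport divided into a rare and a common transcript. Cd163 (ENSMUSG00000008845, chromosome 6, 124304636 to 124330529), the scavenger receptor for haemoglobin bound to haptoglobin, was at 2.89, 1.53 and 2.69 CPM in Nrp1 high libraries, against 0.636, 3.76 and 2.29 CPM in Nrp1 low libraries. These values rest on 50 to 90 counts in the high and 20 to 90 counts in the low libraries, and the low group enclosed the high one. Slc48a1 (ENSMUSG00000081534, chromosome 15, 97784365 to 97792692), also called HRG1, moves haem out of the phagolysosome. It was at 83.9, 85.7 and 93.8 CPM in Nrp1 high libraries, against 108, 105 and 120 CPM in Nrp1 low libraries. The groups were separate but close, with a log2 difference of -0.34 ± 0.17 (SE; 95% interval -0.73 to 0.05; edgeR adjusted p = 0.453).

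Neither gene of haem breakdown passed the test. Hmox1 (ENSMUSG00000005413, chromosome 8, 75093618 to 75100593), the inducible haem oxygenase, was at 78.0, 91.3 and 88.7 CPM in Nrp1 high libraries, against 111, 96.2 and 130 CPM in Nrp1 low libraries. The gap between the highest Nrp1 high and the lowest Nrp1 low library was small, and the log2 difference was -0.39 ± 0.19 (SE; 95% interval -0.83 to 0.05; edgeR adjusted p = 0.447). Blvrb (ENSMUSG00000040466, chromosome 7, 27447978 to 27465981), a biliverdin and flavin reductase that is also abundant in red cell precursors, was at 90.1, 81.8 and 75.5 CPM in Nrp1 high libraries, against 104, 80.3 and 152 CPM in Nrp1 low libraries. Here the groups overlapped, and the low group was spread by replicate 3, without which the log2 difference was -0.16 in place of -0.44.

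The 2 ferritin chains had similar patterns over the libraries. Fth1 (ENSMUSG00000024661, chromosome 19, 9980600 to 9985111) encodes the heavy chain, which oxidises iron for storage, and was at 1746, 2153 and 1731 CPM in Nrp1 high libraries, against 2485, 1821 and 2827 CPM in Nrp1 low libraries. Ftl1 (ENSMUSG00000050708, chromosome 7, 45457944 to 45459886) encodes the light chain, which helps the core to form, and was at 6078, 9489 and 6199.5 CPM in Nrp1 high libraries, against 11703.5, 7647 and 11428 CPM in Nrp1 low libraries. In both genes Nrp1 high replicate 2 lay above Nrp1 low replicate 2 and the groups overlapped. The log2 differences were -0.34 ± 0.24 for Fth1 and -0.50 ± 0.29 for Ftl1 (SE; edgeR adjusted p = 0.517 and 0.469), and their 95% intervals, -0.89 to 0.20 and -1.16 to 0.16, include no difference and a level lower by more than 1.5-fold alike. Both have processed copies elsewhere in the genome that can share reads. The row of the pseudogene Ftl1-ps1 held 1.56 to 2.23% as many counts as Ftl1 in the Nrp1 high and 1.34 to 1.96% in the Nrp1 low libraries. The single values of Ftl1 are therefore uncertain to that degree or more. The row of the pseudogene Fth-ps2 held 0 to 55 counts, where that of Fth1 held 43618 to 78173. How many reads such copies shared with either gene was not tested.

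Iron uptake varied more within the Nrp1 low group than between the group means. Tfrc (ENSMUSG00000022797, chromosome 16, 32608896 to 32632794), the transferrin receptor of dividing and haemoglobin-making cells, was at 47.9, 36.6 and 48.9 CPM in Nrp1 high libraries, against 15.2, 77.7 and 37.4 CPM in Nrp1 low libraries. The Nrp1 high libraries lay close together and inside the range of the low ones. The log2 difference was 0.04 ± 0.50 (SE; 95% interval -1.12 to 1.19; edgeR adjusted p = 0.978), 0.76 without Nrp1 low replicate 2 and -0.37 without Nrp1 low replicate 1. Cd163 had its lowest value in the same library, Nrp1 low replicate 1, and its log2 difference of 0.09 ± 0.66 (SE; 95% interval -1.41 to 1.5999; edgeR adjusted p = 0.953) was -0.35 without it and 0.70 without Nrp1 low replicate 2. That library also stood apart on the first principal component.

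**Figure D2:**
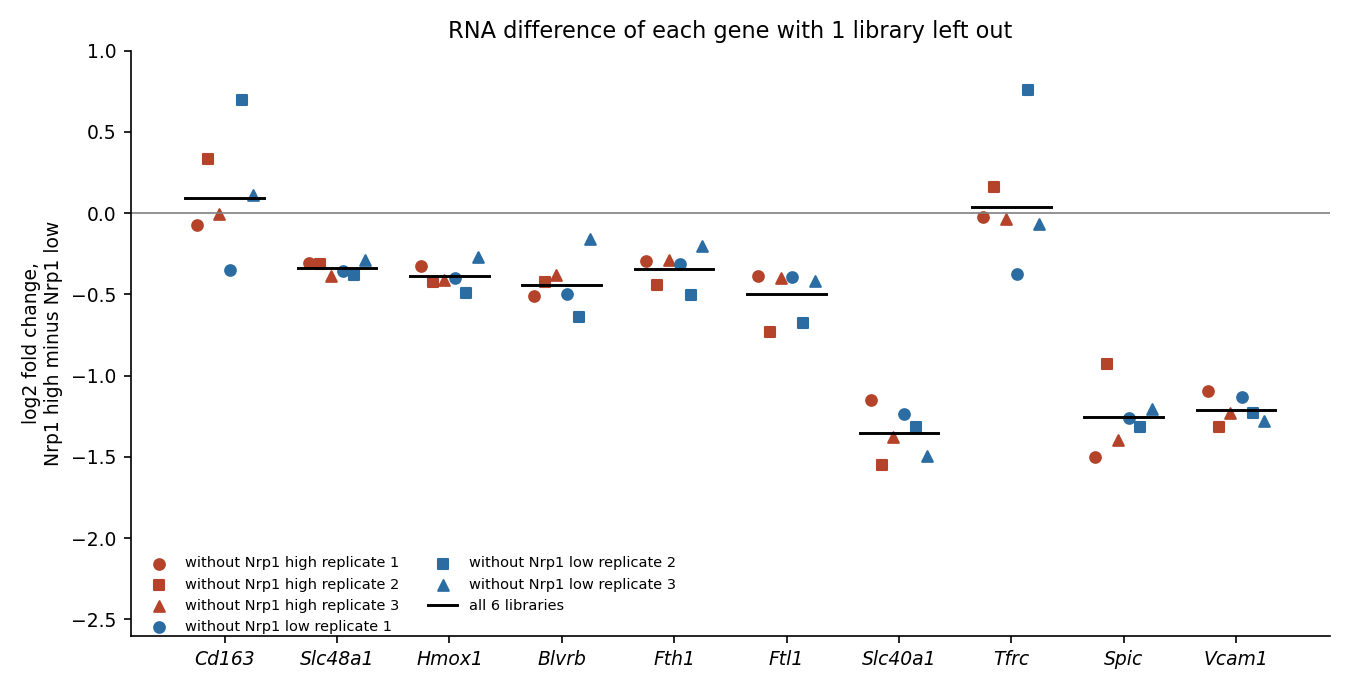
Log2 fold change of each gene (Nrp1 high minus Nrp1 low, edgeR) with all 6 libraries as a black line and with each library left out as a point, red where an Nrp1 high and blue where an Nrp1 low library was left out. Slc40a1 ran from -1.55 to -1.15, Vcam1 from -1.32 to -1.09 and Spic from -1.503 to -0.93, while Cd163 and Tfrc crossed 0.

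Among the members, Slc48a1 and Hmox1 had the smallest distance between library patterns. Their mean absolute difference was 0.094 over the 6 libraries on log2(CPM + 1) centred for each gene. Hmox1 and Fth1 differed by 0.102, Fth1 and Ftl1 by 0.132 and Slc40a1 and Vcam1 by 0.143, whereas Tfrc and Spic were farthest apart at 0.917. Out of 8646 genes of at least 10 CPM on average, Vcam1 was the third most like Slc40a1, after Pxylp1 (0.0582) and Hk3 (0.133). The genes most like Spic were Slc28a2 (0.117), Marveld1 (0.147) and Fpr2 (0.175), and those most like Hmox1 were Trp53rka (0.0362), Pop5 (0.0539) and Mrpl14 (0.0564). For Tfrc they were Pde3b (0.0295), Itgav (0.105) and Pdzd8 (0.117). The distance is not scaled to how much a gene varies, so genes that vary little lie close together. The mean absolute deviation from the gene's own mean was 0.196 for Hmox1, against 0.676 for Slc40a1, 0.618 for Spic and 0.506 for Tfrc. These distances rest on 6 libraries and are given as a description.

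The wider genes of iron and haem handling were taken as a list of 44, of which 41 were tested. Of these, 2 fell and 0 rose in Nrp1 high, where 0.676% of all genes were called lower. The median log2 fold change was -0.24 with 25 below 0 and 16 above, compared with 7680 below and 7861 above over all genes tested. The 2 were Ltf, the iron-binding lactoferrin, at 295 CPM in Nrp1 high libraries against 1889 CPM in Nrp1 low libraries (log2 difference -2.68 ± 0.24 SE, edgeR adjusted p = 0.00416), and Lcn2, which binds bacterial siderophores, at 172 CPM in Nrp1 high libraries against 926 CPM in Nrp1 low libraries (log2 difference -2.43 ± 0.30 SE, edgeR adjusted p = 0.0114). Both are proteins of neutrophil secondary granules and are also in the neutrophil marker list. The count of 2 was 0 without Nrp1 high replicate 3 and 1 without high replicate 1, high replicate 2 or low replicate 3. Alas1, the first enzyme of haem synthesis, averaged 103 CPM in Nrp1 high libraries against 345 CPM in Nrp1 low libraries (log2 -1.75, edgeR adjusted p = 0.103), and Hp, which encodes the haemoglobin carrier haptoglobin, 854 CPM against 1459 CPM (log2 -0.77, edgeR adjusted p = 0.262). None of the 14 regulators, which include Bach1, Nfe2l2 and the iron regulatory proteins Aco1 and Ireb2, was called, nor was any of the 11 tested genes of iron uptake and export outside the 10.

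None of the 18 genes listed as markers of red pulp macrophages was called. Their log2 fold changes were below 0 in 16 and above 0 in 2, Axl and Mrc1, with a median of -0.67, against 0.01 over all genes tested. In 10 of the 18 every Nrp1 high library lay below every Nrp1 low one, and in 1, Axl, above, compared with 10.8% and 9.51% of all genes tested. The lowest p values were those of Fcna, a ficolin of macrophages, at 31.0 CPM in Nrp1 high libraries against 80.7 CPM in Nrp1 low libraries (edgeR adjusted p = 0.0579), of C1qb at 36.4 and 79.9 CPM (edgeR adjusted p = 0.112), of C1qc at 32.5 and 70.1 CPM (edgeR adjusted p = 0.151), both subunits of complement C1q, and of Treml4, a surface receptor, at 19.8 and 49.8 CPM (edgeR adjusted p = 0.182). Adgre1, the F4/80 antigen, was at 121 CPM in Nrp1 high libraries against 137 CPM in Nrp1 low libraries, and Cd68 at 434 and 519 CPM. The summed level of the 18 genes was 801 to 979 CPM in Nrp1 high libraries against 1005 to 1328 CPM in Nrp1 low libraries, with none of them at 0 throughout. Cd68 and Adgre1 together made up most of this sum. Not all 18 genes are particular to red pulp macrophages, Cd68, Adgre1, Marco and Siglec1 being examples. The part of these markers in the values of Slc40a1, Spic and Vcam1 was not tested.

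**Figure D3:**
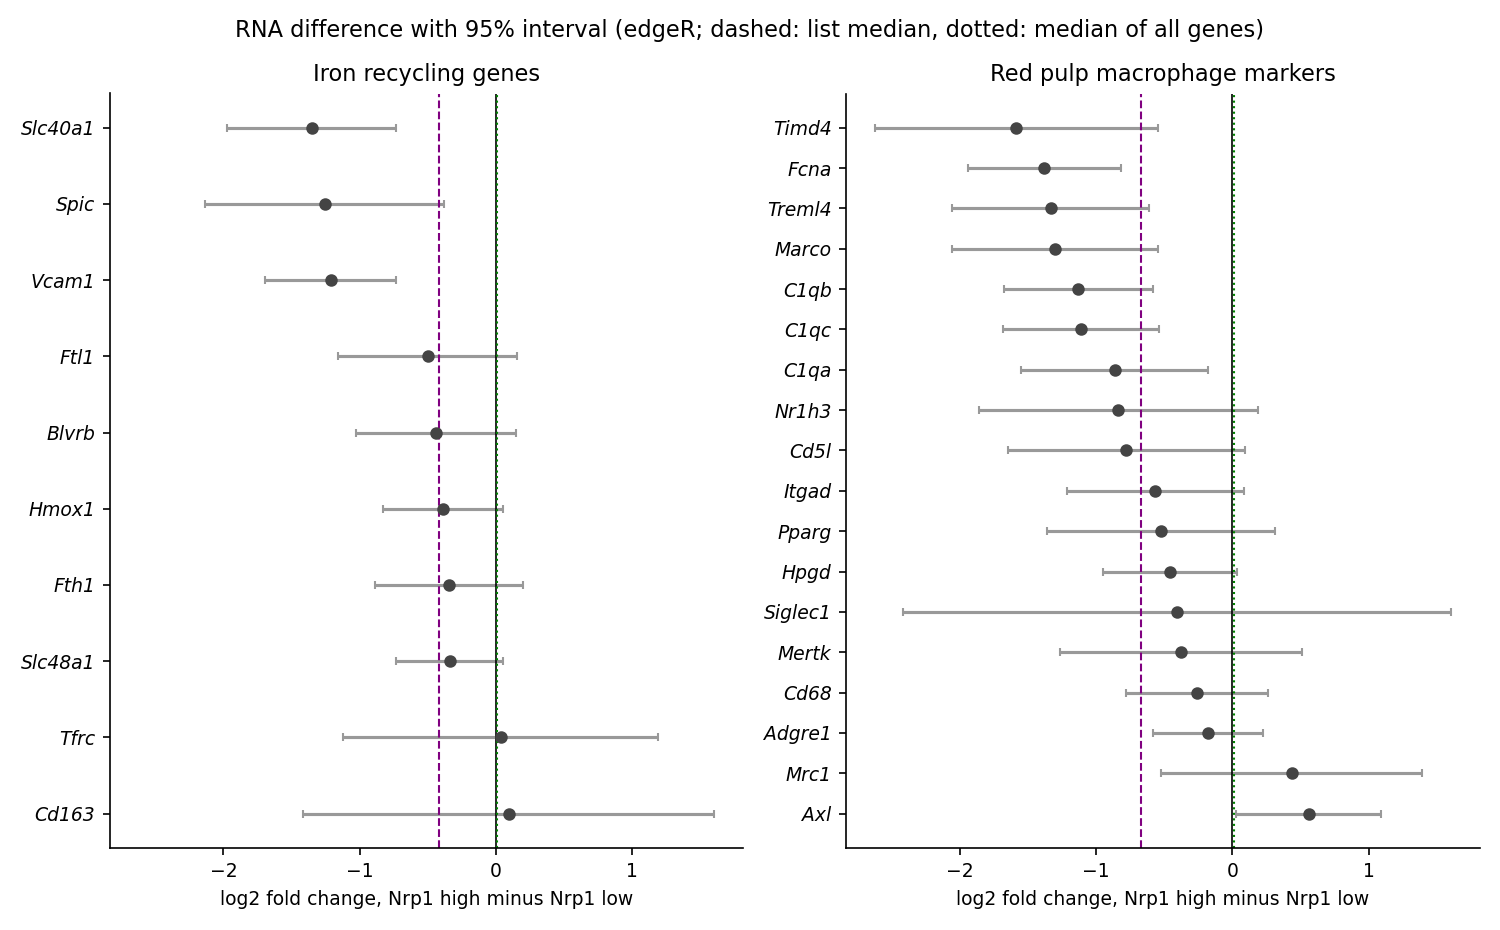
Log2 fold change (Nrp1 high minus Nrp1 low) with its 95% interval from edgeR for the 10 genes and for 18 red pulp macrophage markers; the dashed line is the list's median (-0.42 and -0.67) and the dotted line the median of all genes (0.01). The intervals of Slc40a1, Spic and Vcam1 lie below 0, as do those of 7 markers.

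Markers of other cells that can express these genes were also summed. Of the neutrophil markers, 12 of 18 fell in Nrp1 high, compared with 0.676% of all genes. The summed level of the 18 was 9660 to 12388 CPM in Nrp1 high libraries against 52994 to 85593 CPM in Nrp1 low libraries. S100a8 was the largest part of this sum, averaging 3636 CPM in Nrp1 high against 24256 CPM in Nrp1 low libraries. All 18 log2 fold changes were below 0, and Ly6g was at 4.26 and 8.52 CPM (edgeR adjusted p = 0.434). Camp, the cathelicidin of granules, was at 643 CPM in Nrp1 high libraries against 8417 CPM in Nrp1 low libraries (log2 -3.71, edgeR adjusted p = 0.00416). Erythroid markers, in 20 tested genes, had 0 called, with summed levels of 3566 to 4275 CPM in Nrp1 high libraries against 3592 to 6566 CPM in Nrp1 low libraries. Haemoglobin transcripts were present in every library, Hba-a1 averaging 1574 CPM in Nrp1 high against 2076 CPM in Nrp1 low libraries (edgeR adjusted p = 0.506), and Epor, the erythropoietin receptor, had the lowest p of that list at 5.71 and 10.2 CPM (edgeR adjusted p = 0.351). The highest erythroid sum was in Nrp1 low replicate 3, which also held the most Blvrb, Hmox1, Slc48a1, Fth1 and Spic. A link between these levels was not tested.

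Endothelial and stromal markers, cells that can also carry Vcam1, summed to 21.9 to 25.96 CPM in Nrp1 high libraries against 19.6 to 23.2 CPM in Nrp1 low libraries, with 0 of 9 tested called and with Cdh5, Kdr, Tek, Col1a1, Col1a2, Pdgfra and Pdgfrb listed at 0 in at least 1 library. Proliferation markers, relevant to Tfrc, summed to 2771 to 2993 CPM in Nrp1 high libraries against 2105 to 2489 CPM in Nrp1 low libraries, with 0 of 8 called and Top2a, a topoisomerase of dividing cells, at 707 and 344 CPM (edgeR adjusted p = 0.397). The list did not move as one, with 4 log2 fold changes below 0, 4 above and a median of 0.0025. Mki67 was at 764 and 375 CPM in Nrp1 high and Nrp1 low libraries, but Mcm2 at 108 and 134 CPM. Of the 12 monocyte markers 0 were called. Their sums were 26091 to 34886 CPM in Nrp1 high libraries against 31241 to 46852 CPM in Nrp1 low libraries, which overlapped. Lyz2 made up most of each sum (24566.5 CPM on average in the high group, 36827 CPM in the low). Single markers went both ways, with 6 log2 fold changes below 0 and 6 above. Nr4a1 (32.6 and 60.5 CPM) and Cd14 (18.9 and 47.4 CPM) were lower in Nrp1 high without overlap. F13a1 (881 and 518 CPM), Ccr2 (810 and 463 CPM) and Fcgr1 (91.8 and 68.8 CPM) were higher without overlap. The edgeR adjusted p of these genes ran from 0.183 to 0.445. Of 8 lymphocyte markers 1 fell, compared with 0.676% of all genes. It was Nkg7, a cytotoxic granule protein, at 49.7 CPM in Nrp1 high libraries against 173 CPM in Nrp1 low libraries (edgeR adjusted p = 0.0166). The lymphocyte sums, which include Nkg7, were 225 to 259 CPM in Nrp1 high libraries against 332 to 447 CPM in Nrp1 low libraries, without overlap. Of the lymphocyte log2 fold changes, 7 were below 0 and 1 above. Of 6 dendritic cell markers 0 were called. The dendritic sums were 20.7 to 27.9 CPM in Nrp1 high libraries against 9.41 to 16.3 CPM in Nrp1 low libraries, which did not overlap, with all 6 log2 fold changes above 0 and 3 higher at an unadjusted p under 0.05, as 4.5% of all genes were. What share of the 10 genes' transcripts came from each of these cells was not tested.

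**Figure D4:**
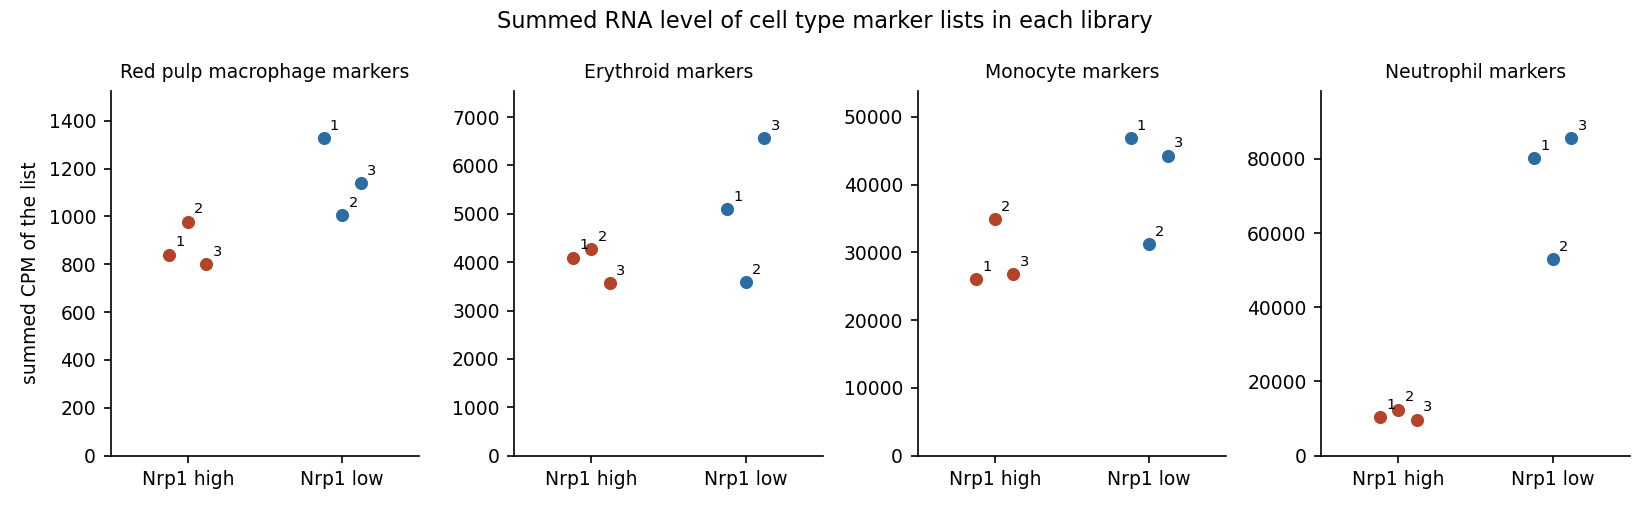
Summed CPM of 4 marker lists in each library, Nrp1 high on the left and Nrp1 low on the right of each panel, numbers being replicates. The neutrophil and red pulp macrophage sums of the 3 Nrp1 high libraries lie below those of all 3 Nrp1 low libraries, and the erythroid and monocyte sums overlap.

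Open chromatin at these genes was read from the authors' comparison. The authors' deposited table assigned 12 regions to 8 of the 10 genes, 6 of these regions being at a transcript start, and Spic and Cd163 had none. One of the 12 passed a deposited FDR of 0.05, with a positive log2 fold. Among all listed regions 7.55% passed in either direction, 2.56% with a positive fold, and 1.78% with a positive fold among regions within 3000 bases of a start. The median fold in the authors' deposited table was 0.16 over the 12 regions and -0.09 over all regions. Values of single ATAC libraries were not used, so the spread and depth behind each fold are unknown.

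The region that passed was at a transcript start of Slc40a1, chr1:45925441-45925840 on GRCm38, which the authors' deposited table annotates as a promoter within 1 kb of the start. Its log2 fold in the authors' deposited table was 0.65, or 1.57-fold, with a p of 1.97e-05 and an FDR of 0.00207, which ranked it 389 of 40796 regions. The region lies within the RefSeq span of the gene (45908070 to 45926532) and reaches neither end of it. Read by the name of the comparison, high against low, this Slc40a1 start was more open in Nrp1 high, the fraction with less Slc40a1 RNA. That reading rests on the name alone, since no column states the direction. Of 23 regions past the FDR assigned to the 105 genes called lower in RNA, 20 had a positive and 3 a negative fold in the authors' deposited table. Of 144 such regions at genes higher in RNA at an unadjusted p under 0.05, 26 had a positive and 118 a negative fold, and at the 1045 genes lower by that measure the numbers were 74 and 78. Over all listed regions, 1046 of the 3082 past the FDR had a positive fold. Of 149 tested genes whose start region passed with a positive fold, 85 had an RNA log2 fold change below 0. With a negative fold it was 112 of 295. Nrp1 itself had 2 regions past the FDR with positive folds, 1.47 and 1.502, and 1 with a fold of -0.39 in the authors' deposited table. These lay 60500, 71658 and 132065 bases from a start, so none was at an Nrp1 promoter. The direction at Slc40a1 is therefore given only as the name of the comparison has it.

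The starts of the genes of haem breakdown and ferritin did not pass the FDR. In the authors' deposited table the log2 fold was -0.01 at the Hmox1 start (FDR 0.987), -0.03 at the Ftl1 start (FDR 0.907), -0.07 at the Fth1 start (FDR 0.718), -0.10 at the Slc48a1 start (FDR 0.681) and 0.15 at the Tfrc start (FDR 0.495). The region over the Blvrb start, whose promoter with 4 GC boxes is printed above, carries the identifier of the neighbouring gene Sptbn4 and had a fold of -0.05 (FDR 0.783) in the authors' deposited table. Away from the starts, the regions 1836 and 5329 bases from the Fth1 start, 3686 bases from the Hmox1 start, 1314 bases from a Blvrb start and 2020 bases from a Vcam1 start had folds of 0.18 to 0.26, and the one 865 bases from the Ftl1 start had -0.17. None of these passed, their FDR in the authors' deposited table lying between 0.346 and 0.729. A further 11 regions within 10000 bases of the 10 genes carry other identifiers, and none passed either, the lowest FDR being 0.0627 at chr7:45457263-45457662, just beyond the end of Ftl1 (fold -0.48 in the authors' deposited table). A fold whose FDR misses the threshold does not show equal openness.

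**Figure D5:**
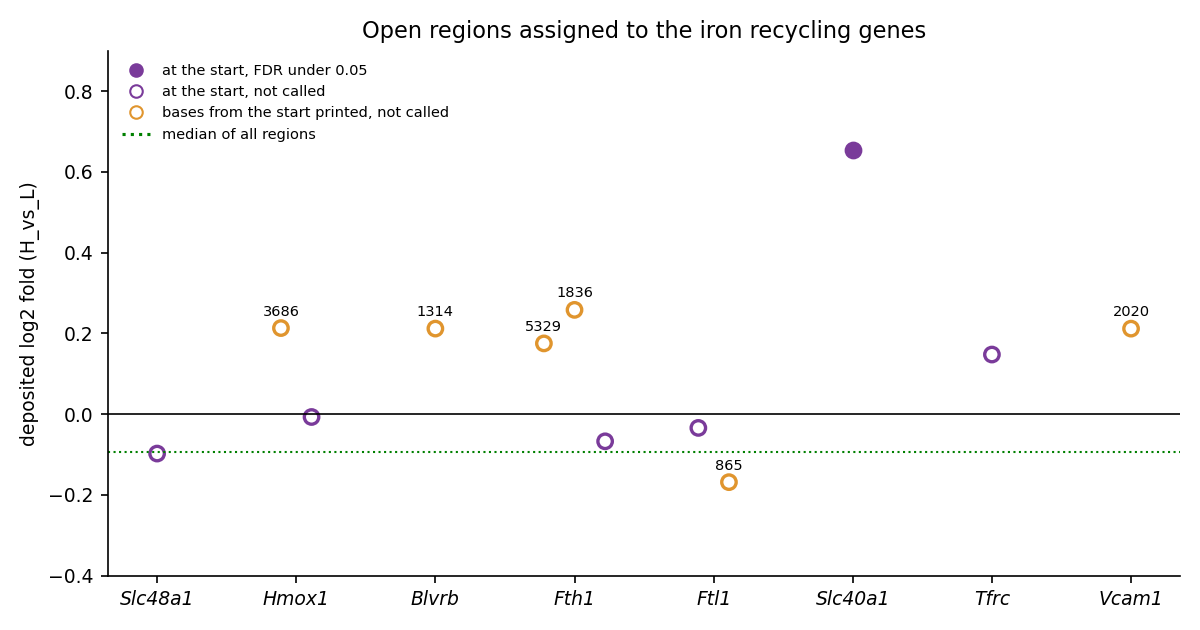
Deposited log2 fold (comparison named H_vs_L) of the 12 regions assigned to 8 of the 10 genes; purple marks regions at a transcript start, orange regions elsewhere with their distance in bases, and a filled point an FDR under 0.05. The region at an Slc40a1 start stands at 0.65, and the 11 other regions lie between -0.17 and 0.26.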

How the data were processed

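Per the labels' protocols, RNA libraries came from a template-switching low-input kit and were read in pairs of 150 bases. Per the submitters' processing notes the build was GRCm38 and the tools, listed with no role or version, included HISAT2, StringTie, BWA, MACS2, ChIPseeker, DiffBind, DESeq2 and edgeR. The deposited RNA values are estimated counts per gene, all whole, in the layout of StringTie's count script, which derives counts from coverage, so 1 count (0.0306 to 0.0418 CPM) need not be 1 read. Strand is not stated. For ATAC the authors deposited for each region a log2 fold with its p-value and FDR, and 99.2% of regions were 400 bases wide. No source used here says which libraries entered or whether reads were shifted. The labels name a DESeq2 table and the deposited one is named for edgeR. Replicates 1 and 2 and replicates 3 to 5 have differently styled library names, a split that could not be examined.

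Genes were kept by filterByExpr and libraries scaled by TMM. The test was edgeR's robust quasi-likelihood test (edgeR 4.0.16, R 4.3.3) with group as the only term and Benjamini-Hochberg adjustment over all genes tested. The procedure was tested on simulated data, drawn independently for each gene. No simulated library was made to stand out, so that run does not show how the procedure performs on these libraries. SE is the log2 fold change over the square root of F. Limma 3.58.1 (voom) and DESeq2 1.42.0 were alternatives, as were other scalings, low-value filters, thresholds, a replicate block and leaving out each RNA library. Groups came from the sample titles, and p-values measure the spread between libraries, which may be technical. All 10 genes were named, then up to 4 genes of lowest p or any called per list. The 10 genes and the lists were chosen with earlier results of these data known. Gene positions and promoters are RefSeq's on GRCm38.p6. Figures and tables used Python 3.11.15.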

Additional observations from a re-analysis of the deposited data

How the results depend on the processing

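The count of the 10 genes called was 0 under RLE, upper-quartile and library-total scaling, without a low-count filter, with the replicate block and without each library in turn. It was 2 with DESeq2, 1 with limma-voom, 1 among genes of at least 10 CPM in 3 libraries and 2 at an adjusted p under 0.1. The genes called over the whole table numbered 403 of 15541 with DESeq2 (77 higher, 326 lower) and 120 of 15541 with limma-voom (1 higher, 119 lower). They numbered 122 of 8768 among genes of at least 10 CPM in 3 libraries (1 higher, 121 lower). At an adjusted p under 0.1 they numbered 169 of 15541 (6 higher, 163 lower). There were 0 with the replicate block (943 at an unadjusted p under 0.05) and 0 to 125 with a library left out. The wider iron and haem genes called numbered 4 with DESeq2, 0 with the replicate block (6 at an unadjusted p under 0.05) and 0 to 2 with a library left out. Cd163 was at -0.08, -0.0063 and -0.35 without Nrp1 high replicate 1, high replicate 3 and low replicate 1, and Tfrc at -0.02, -0.04, -0.37 and -0.06 without high replicate 1, high replicate 3, low replicate 1 and low replicate 3, where all libraries gave small positive values. With a library left out Cd163 ran from -0.35 to 0.70 and Tfrc from -0.37 to 0.76. The other 8 genes kept their sign in all 14 alternatives run for each. Adjusted p over the alternatives ran from 0.000832 to 0.481 for Slc40a1 and from 6.65e-05 to 0.481 for Vcam1. Library totals shifted all log2 fold changes by a median of 0.19. The number of regions called was 0 with an absolute log2 fold of at least 1 and 0 with a Bonferroni correction, and 1 in the other settings run, among them an FDR under 0.01 and, chosen after seeing the data, regions within 10000 bases. Deviations of same-numbered RNA libraries correlated at -0.237, -0.24 and 0.021 and no library correlated best with its own number, so the replicate block is given only here. The cause of the differences between settings was not tested.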
